A study of Mus musculus with 33 samples.

Results

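Cartilage matrix genes other than collagens were followed here through the early development of the mouse frontal bone, as 10 genes chosen by symbol from the table of all genes: Acan, Hapln1, Matn1, Matn3, Matn4, Comp, Chad, Snorc, Cnmd and Cytl1. The table held 55401 genes, of which 20073 passed a filter on low counts, and all 10 were among them. The samples were bulk polyA RNA labelled as calvarial frontal bone from mouse embryos, with 3 libraries at each of 11 stages. The early stages were E8.5, E9, E9.5 and E10, followed by E10.5 and E11, then by E11.5, E12 and E12.5, and last by E13.5 and by E14.5. The labels give no strain, genotype or treatment for any stage, and the stages form the only groups. Whether replicate libraries are separate embryos or pools is not stated there, so p-values measure the spread between these libraries, which may be technical. Each library held between 14516518 and 19964404 counts (median 17081223).

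Cartilage is a hydrated tissue in which chondrocytes hold large proteoglycans inside a network of collagen fibrils. Aggrecan binds hyaluronan, link protein locks the pair together, and matrilins and other adaptor proteins join such aggregates to the fibrils. The frontal bone forms in a membrane without a cartilage template, while cartilage of the skull base and nasal capsule forms below and in front of it. The labels do not say how far such neighbouring tissue was removed.

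Each level is in CPM, counts after scaling for library size and composition. Levels of different genes are compared as CPM per kilobase of exon, unless stated. Changes are log2 fold changes ± an approximate standard error from edgeR's quasi-likelihood test over all 33 libraries, with Benjamini-Hochberg adjusted p-values over all tested genes and a threshold of 0.05. Libraries of a stage are named a, b and c after their columns, and the letters carry no further meaning. In bulk RNA, a lower level from fewer cells of a type cannot be told apart from less RNA per cell.

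Markers showed that the libraries held more than bone. The 13 neuron genes summed to between 219.6 and 3406 CPM per library, and the 10 osteoblast genes to between 73.1 and 2626 CPM, with Dmp1 at 0 at E8.5. Red-cell genes were highest at E12, with a summed level between 11253 and 30478 CPM in its 3 libraries against 2434 to 2619 at E11.5. With scaling by library totals alone, the median log2 fold change of all genes shifted by 0.43 for E14.5 against E8.5, and by 0.12 to 0.17 in the other 4 comparisons of distant stages described here.

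All 10 genes changed over the course by the F-test across stages, with adjusted p-values from 2.77e-25 (Cnmd) to 4.92e-07 (Chad), where 95.3% of all tested genes did. For 9 of them the highest stage mean was at E14.5, which for Hapln1 was level with E8.5, and for Matn3 it was at E9. The genes then differed in how they began. Hapln1 and Matn3 started high and passed through a trough, whereas Acan, Matn1, Matn4, Cytl1 and Cnmd stood near 0 or low at first and reached their highest levels at the end.

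**Figure D1:**
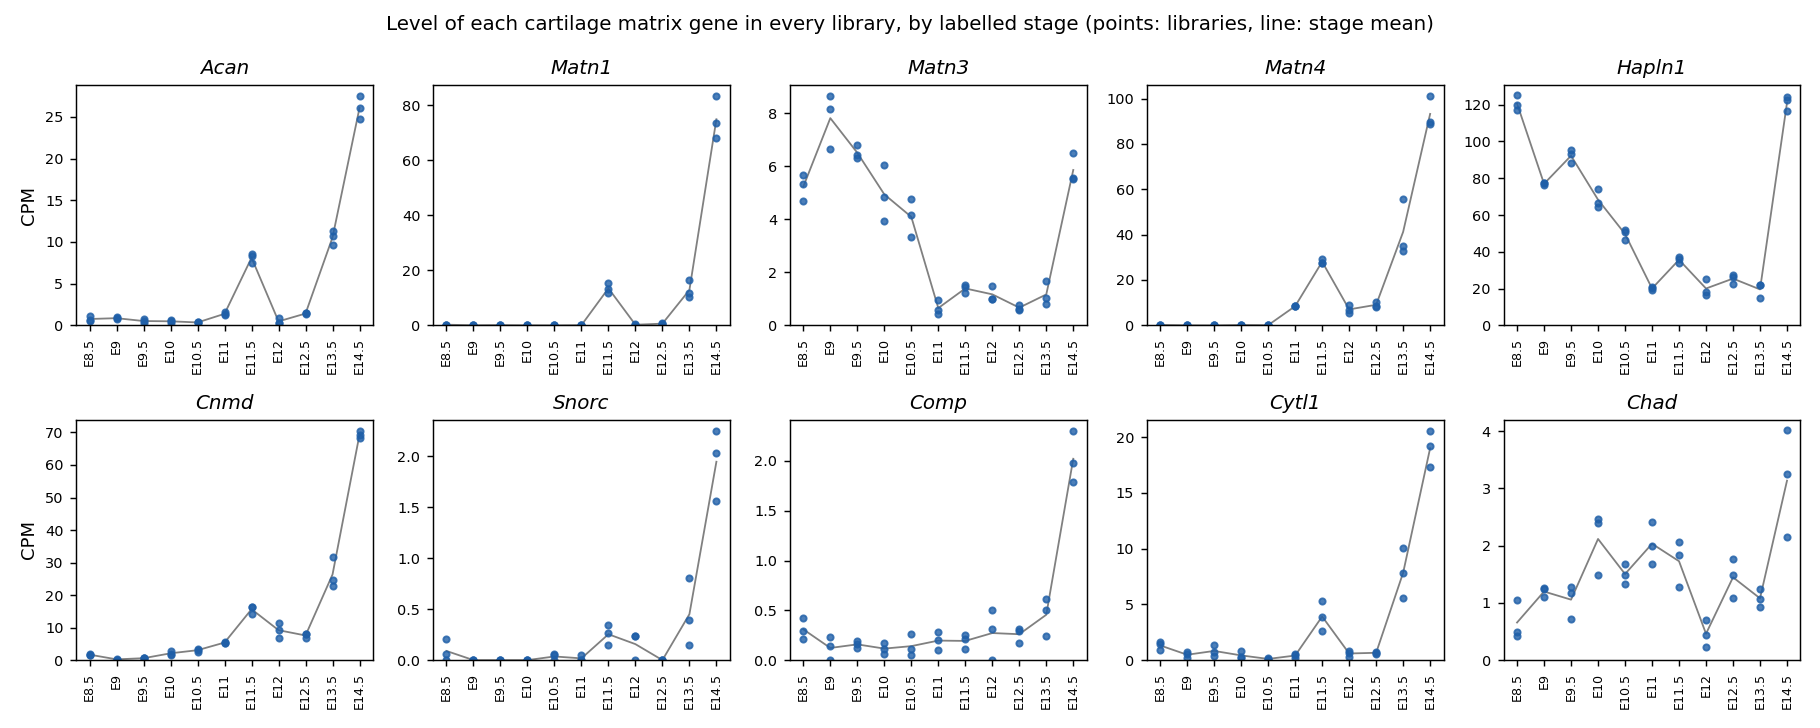
CPM (vertical axis, its own scale from 0 in each panel) of the 10 cartilage matrix genes in each of 33 libraries (points) at the 11 labelled stages, with the stage mean as a line. Acan, Matn1, Matn4, Cnmd and Cytl1 show a peak at E11.5 and a larger rise to E14.5, while Hapln1 and Matn3 fall to a trough from E11 and recover at E14.5.

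Acan encodes aggrecan, the large chondroitin sulfate proteoglycan that gives cartilage its resistance to compression (GRCm38 chr7:79053483-79115099, plus strand). It read 1.12, 0.639 and 0.526 CPM in the E8.5 libraries and 0.28, 0.36 and 0.411 at E10.5. At E12.5 it read 1.49, 1.45 and 1.3 CPM, at E13.5 9.64, 11.3 and 10.7, and at E14.5 26, 27.5 and 24.7. Every E14.5 library lay above every library of the earlier stages. The change from E12.5 to E14.5 was 4.19 ± 0.20 (adjusted p = 9.65e-17), and most of it fell between E12.5 and E13.5, with 2.89 ± 0.21 in that step and 1.30 ± 0.17 in the next.

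Matn1, the classical cartilage matrilin (chr4:130944385-130955475, plus strand), was close to absent at first. It had 11 counts over the E8.5 libraries and none over the E10.5 libraries, which with a floor of 3 counts over the group makes E10.5 at least 4.58-fold lower (adjusted p = 0.00578). It then read 0.459, 0.467 and 0.949 CPM at E12.5, 11.6, 10.4 and 16.6 at E13.5, and 83.3, 68.1 and 73.5 at E14.5. The groups did not overlap, and the change from E12.5 to E14.5 was 6.91 ± 0.29 (adjusted p = 2.24e-17). Matn1 had a larger change than Acan in the same libraries, so that the ratio of their per-kilobase levels moved. Per 100 of Acan, Matn1 stood between 115 and 271 at E12.5 and between 926 and 1194 at E14.5.

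Cytl1, a small secreted protein that chondrocytes make (chr5:37735519-37739820, plus strand), followed a similar course. Its libraries read 0.913, 1.63 and 1.4 CPM at E8.5 and 0.112, 0.0515 and 0.154 at E10.5, a fall of 3.55 ± 0.62 on the log2 scale (adjusted p = 2.3e-05). They read 0.574, 0.623 and 0.771 CPM at E12.5 and 20.5, 17.3 and 19.2 at E14.5, a rise of 4.85 ± 0.35 (adjusted p = 1.1e-12). Over the 11 stage means of log2 CPM, the Pearson correlation was 0.97 between Acan and Matn1, 0.93 between Acan and Cytl1 and 0.96 between Matn1 and Cytl1. These points share libraries and scaling, and no test was made of them.

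The bases before the start of Acan, Matn1 and Cytl1 are shown because their levels moved together, with those of Matn3 as a gene of another course. The sequences are RefSeq's (GRCm38.p6), 250 bases up to RefSeq's transcript start, 5′ to 3′, all from the plus strand: chr7:79052976-79053225 for Acan, chr4:130944135-130944384 for Matn1, chr5:37735269-37735518 for Cytl1 and chr12:8947679-8947928 for Matn3. The Acan window ends short of the gene start given above (79053483), while the others end next to theirs. Capitals mark matches on either strand to the GC box GGGCGG or to the RUNX core TGTGGT.

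Acan: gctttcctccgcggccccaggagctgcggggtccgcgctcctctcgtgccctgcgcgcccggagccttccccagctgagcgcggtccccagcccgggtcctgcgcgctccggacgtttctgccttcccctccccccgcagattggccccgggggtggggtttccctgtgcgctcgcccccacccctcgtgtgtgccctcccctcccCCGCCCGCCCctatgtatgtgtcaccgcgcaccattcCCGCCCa
Matn1: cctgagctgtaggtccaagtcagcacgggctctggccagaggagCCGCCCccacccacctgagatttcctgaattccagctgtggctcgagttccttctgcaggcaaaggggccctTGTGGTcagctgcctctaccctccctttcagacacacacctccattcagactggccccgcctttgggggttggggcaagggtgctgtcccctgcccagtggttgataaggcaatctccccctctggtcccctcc
Cytl1: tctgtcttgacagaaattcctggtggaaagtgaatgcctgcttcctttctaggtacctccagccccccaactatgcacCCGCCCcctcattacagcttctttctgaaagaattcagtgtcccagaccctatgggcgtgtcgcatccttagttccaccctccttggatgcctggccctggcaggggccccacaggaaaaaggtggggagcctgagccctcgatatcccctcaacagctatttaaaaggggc
Matn3: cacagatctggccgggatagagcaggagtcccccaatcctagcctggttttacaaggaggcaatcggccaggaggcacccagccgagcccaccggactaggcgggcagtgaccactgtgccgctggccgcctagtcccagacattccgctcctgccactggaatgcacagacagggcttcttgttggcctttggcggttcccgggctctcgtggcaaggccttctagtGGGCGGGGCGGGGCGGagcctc

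The Acan window held 74.4% G and C and the Matn1 window 62%, against 54.8% for Cytl1 and 65.2% for Matn3. Acan and Matn3 each had 3 GC box matches, some of them overlapping, and Matn1 and Cytl1 had 1 each, where 32.7% of 32851 mouse windows of this length hold at least 1. The Matn1 window had 1 match to TGTGGT, which 14% of windows hold. The SOX core letters ACAAT (27.7% of windows) and ACAAAG (16.5%), and the TATA letters TATAAA (12.4%), were in none of these 4 windows on either strand. That says only that these letters are not there, and a match describes the sequence without showing a bound site. The GC box and RUNX letters were added to the search after the sequences had been seen. Windows were found for 8 of the 10 genes. Among those not shown, the Hapln1 window held 1 match to ACAAT and 1 to TGTGGT, and the Chad window 1 to TATAAA.

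Hapln1, the link protein that ties aggrecan to hyaluronan and is also known from developing heart and nervous tissue (chr13:89539796-89611652, plus strand), began high and fell early. It read 117, 120 and 125 CPM at E8.5, 50.8, 46.5 and 51.9 at E10.5, and 20.3, 19.1 and 20.7 at E11. These groups did not overlap, and the log2 level fell by 1.28 ± 0.12 from E8.5 to E10.5 (adjusted p = 2.09e-10) and by 1.31 ± 0.12 from E10.5 to E11 (adjusted p = 7.3e-10). It stayed between 14.8 and 37.3 CPM in every library from E11 to E13.5 and then read 116, 124 and 122 CPM at E14.5. The last step alone was 2.63 ± 0.12 (adjusted p = 8.89e-17). Between E8.5 and E14.5 the ends of the course differed by 0.01 ± 0.11 (adjusted p = 0.971), and their libraries overlapped. With scaling by totals alone this difference was 0.44 (adjusted p = 0.00683), close to the shift of the median gene under that scaling.

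Per kilobase, Hapln1 made up most of what the 10 genes gave early on. It held 81% of their summed level at E8.5 and 66.9% at E10.5, then 33.7% at E11. At E14.5 it held 14.4%, although its own level was back at 20.5 ± 0.72 CPM per kilobase (SD, n = 3) from 20.4 ± 0.72 at E8.5. The summed level lay between 24.4 and 26.0 CPM per kilobase in the E8.5 libraries, between 9.86 and 10.3 at E11 and between 136.2 and 150.1 at E14.5. At E14.5 Cnmd (37.6 ± 0.57) and Matn1 (37.5 ± 3.8) were the highest and did not differ beyond their spread. Hapln1 followed at 20.5 ± 0.72, and then Matn4 (18 ± 1.3) and Cytl1 (18 ± 1.5), which did not differ beyond their spread either. Acan stood at 3.49 ± 0.18 CPM per kilobase and Snorc at 2.69 ± 0.49, with Matn3 (1.94 ± 0.18), Chad (1.87 ± 0.56) and Comp (0.681 ± 0.087) below. These shares and this order rest on the correction for exon length. In CPM without it, Hapln1 was highest at E14.5 (121 ± 4.2), above Matn4 (93.2 ± 6.7), Matn1 (75 ± 7.7) and Cnmd (69.4 ± 1.1).

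**Figure D2:**
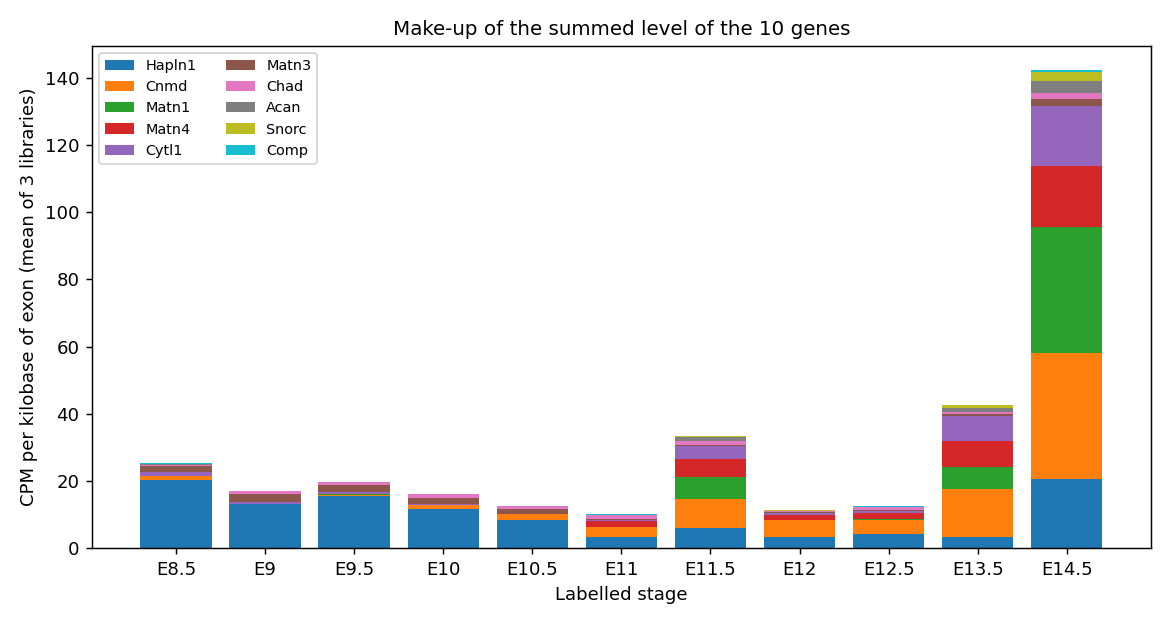
Mean CPM per kilobase of exon of each of the 10 genes, stacked (vertical axis, from 0), at each labelled stage (n = 3 libraries). Hapln1 is most of each bar up to E10.5, with 81% at E8.5, whereas Cnmd and Matn1 are the largest parts at E14.5, with 26.4% and 26.3%.

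Matn3, a matrilin of growth cartilage (chr12:8947929-8972028, plus strand), shared the early high and the trough. It read 8.65, 8.15 and 6.64 CPM at E9, 4.76, 4.17 and 3.34 at E10.5, and 0.565, 0.444 and 0.947 at E11. The step from E10.5 to E11 was -2.63 ± 0.25 (adjusted p = 1.57e-09), without overlap. Levels stayed at or below 1.67 CPM in every library to E13.5 and came back to 5.51, 5.57 and 6.5 CPM at E14.5, a step of 2.35 ± 0.23 from E13.5 (adjusted p = 8.5e-10). E14.5 differed from E8.5 by 0.17 ± 0.19 (adjusted p = 0.434), or by 0.60 (adjusted p = 0.00575) with scaling by totals alone. Over the 11 stage means Matn3 correlated at 0.92 with Hapln1 and at -0.14 with Matn1, although both are matrilins.

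Matn4, a matrilin that is also made outside cartilage (chr2:164389393-164405160, minus strand), was sparse to E10.5 and clearly present from E11. It had 10 counts over the E8.5 libraries, none over the E9.5 libraries and 5 over the E10.5 libraries. At E11 its libraries read 8.53, 8.49 and 8.37 CPM, a step of 6.47 ± 0.40 (adjusted p = 4.81e-13), while Matn1 still had 4 counts in all at that stage. It read 8.2, 8.62 and 10.4 CPM at E12.5 and 101, 89.8 and 88.9 at E14.5, a rise of 3.36 ± 0.19 (adjusted p = 1.19e-14) with no overlap. Matn4 and Rbpjl lie on opposite strands and share 149 exonic bases. The strand setting of the counting is not given in the sources used here, so reads there cannot be told apart. Rbpjl had 315 counts over all libraries against 10537 for Matn4.

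Cnmd encodes chondromodulin, a membrane-bound glycoprotein whose released part inhibits blood vessel growth and is known from cartilage and eye (chr14:79637690-79662170, minus strand). It read 1.61, 1.92 and 1.52 CPM at E8.5 and only 0.177, 0.172 and 0.342 at E9, a fall of 2.86 ± 0.36 on the log2 scale (adjusted p = 8.94e-07). From there the stage mean was higher at each stage up to E11.5, with 2.63, 3.04 and 3.49 CPM at E10.5 and 14.2, 16.3 and 16.4 at E11.5. After 7.92, 6.85 and 7.95 CPM at E12.5, it read 70.4, 68.3 and 69.3 at E14.5, a rise of 3.20 ± 0.15 (adjusted p = 3.71e-17). Its lowest stage mean was at E9, and its step from E9.5 to E10 was already 1.82 ± 0.27 (adjusted p = 6.87e-06).

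Comp, a pentameric thrombospondin of cartilage and tendon (chr8:70373558-70382066, plus strand), and Snorc, a small membrane proteoglycan of chondrocytes (chr1:87470271-87475482, plus strand), were sparse. Comp lay at or below 0.612 CPM in every library to E13.5 and read 2.3, 1.98 and 1.78 CPM at E14.5. Its rise from E12.5 was 2.92 ± 0.50 (adjusted p = 1.19e-05), and E14.5 against E13.5 was the only neighbouring step in which it passed. Snorc had no count in 17 of the 33 libraries, among them every library of E9, E9.5, E10 and E12.5. With 114 counts over the E14.5 libraries (2.25, 2.03 and 1.56 CPM) and none at E12.5, it was at least 34.4-fold higher at E14.5 (adjusted p = 1.4e-06).

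Chad, chondroadherin, a leucine-rich protein that binds chondrocytes and collagen (chr11:94565047-94569127, plus strand), stayed at or below 4.01 CPM in every library. It read 0.491, 0.426 and 1.05 CPM at E8.5, 1.68, 1.49 and 1.34 at E10.5, 1.09, 1.77 and 1.48 at E12.5 and 4.01, 2.14 and 3.25 at E14.5. The rise from E12.5 to E14.5 was 1.11 ± 0.29 (adjusted p = 0.00159), and the groups did not overlap. The whole of Chad lies inside Acsf2 on the opposite strand, with no exonic base shared, and Acsf2 had 11637 counts over all libraries against 893 for Chad. Reads from unspliced Acsf2 and from Chad cannot be told apart without the strand setting. Acsf2 itself differed by 0.18 ± 0.11 between E12.5 and E14.5 (adjusted p = 0.177). At E8.5 it stood lower, at 9.44 ± 1.5 CPM (SD, n = 3), against 25 ± 0.23 at E10.5 and 23.8 ± 1.2 at E14.5. The part of Acsf2 reads in the rises of Chad from E8.5 was not tested.

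Across the whole course, 8 of the 10 genes were higher at E14.5 than at E8.5 and 0 were lower, where 41.1% of all tested genes were higher and 33.5% lower. The 8 genes were Acan (5.10 ± 0.23), Matn1 (8.23 ± 0.34), Matn4 (8.68 ± 0.31), Cnmd (5.37 ± 0.18), Cytl1 (3.84 ± 0.33), Snorc (4.35 ± 0.73), Comp (2.68 ± 0.50) and Chad (2.21 ± 0.33), with adjusted p-values from 4.43e-21 to 2.25e-05. The median over the 10 genes was 4.10, and over all tested genes 0.16. Of all calls in this comparison 55.0% were rises, and with scaling by totals alone 71.3% were, under which all 10 genes were called higher.

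The course after E12.5 ended in a rise of every gene, though not all of them had risen by E13.5. All 10 were higher at E14.5 than at E12.5 and their libraries did not overlap, where 25.3% of tested genes were called higher, 28.6% were called lower and 31% were higher without overlap. The median was 3.28 over the 10 genes, also with Snorc set at its bound, and -0.03 over all genes. Rises were 46.9% of calls, and 58.4% with scaling by totals alone. The last step, from E13.5 to E14.5, also took all 10 genes up (24% of tested genes rose and 26.9% fell), by between 1.18 ± 0.17 (Matn4) and 2.63 ± 0.12 (Hapln1).

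Between E8.5 and E10.5, 2 of the 10 genes were called higher and 4 lower in the fit of all libraries. Cnmd (0.87 ± 0.21) and Chad (1.15 ± 0.35) were higher, and Acan, Matn1, Hapln1 and Cytl1 were lower, where 28.2% of tested genes were higher and 21.3% lower. The Acan change, -1.08 ± 0.37 (adjusted p = 0.0168), did not pass without library a of E8.5 or library a of E10.5, and was -0.74 (adjusted p = 0.199) at its weakest. Chad, with an adjusted p of 0.00776, did not pass without library a or library b of E8.5, with a highest adjusted p of 0.0533. In a fit of these 6 libraries alone, 2 genes were lower, Hapln1 and Cytl1, since Acan and Matn1 did not reach that fit's filter. Rises were 57% of all calls here, and 72.5% with scaling by totals alone.

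From E10.5 to E12.5, Acan (1.99 ± 0.32), Matn1, Matn4 (6.57 ± 0.40), Cnmd (1.30 ± 0.17) and Cytl1 (2.55 ± 0.70) were higher, and Matn3 (-2.59 ± 0.26) and Hapln1 (-0.97 ± 0.12) lower, where 18.8% of tested genes were higher and 17.2% lower. Matn1 went from 0 to 33 counts over the group, at least 11.7-fold higher. Snorc, Comp and Chad did not pass. Rises were 52.2% of all calls, and 68.4% with scaling by totals alone.

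Step by step, 3 of the genes were higher at E11 than E10.5 (Acan, Matn4 and Cnmd) and 2 lower (Matn3 and Hapln1), beside 19.2% and 17.3% of tested genes. In the 4 steps before E11, 6 of the 10 genes passed in at least 1 step, where 48% of tested genes did. Those of Hapln1 and Cnmd at E9 and at E10 held when each library was left out in turn, while the fall of Hapln1 at E10 was -0.34 (adjusted p = 0.0809) with scaling by totals alone. Leaving out single libraries ended the others. The rise of Matn3 (highest adjusted p = 0.120) and the fall of Cytl1 (0.157) at E9 were each lost without library a or b of E9 or library c of E8.5, for Matn3 also without library a and for Cytl1 without library b of E8.5. The rise of Cnmd at E9.5 was lost without library a or b of E9 or library c of E9.5 (0.1). That of Matn4 at E10 rested on 9 counts against 0 and was lost without any 1 of the E9.5 libraries or library c of E10 (0.103), that of Chad at E10 without library c of E9.5 or library b or c of E10 (0.105), and the fall of Hapln1 at E10.5 without library a of E10 or library b of E10.5 (0.0778).

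**Figure D3:**
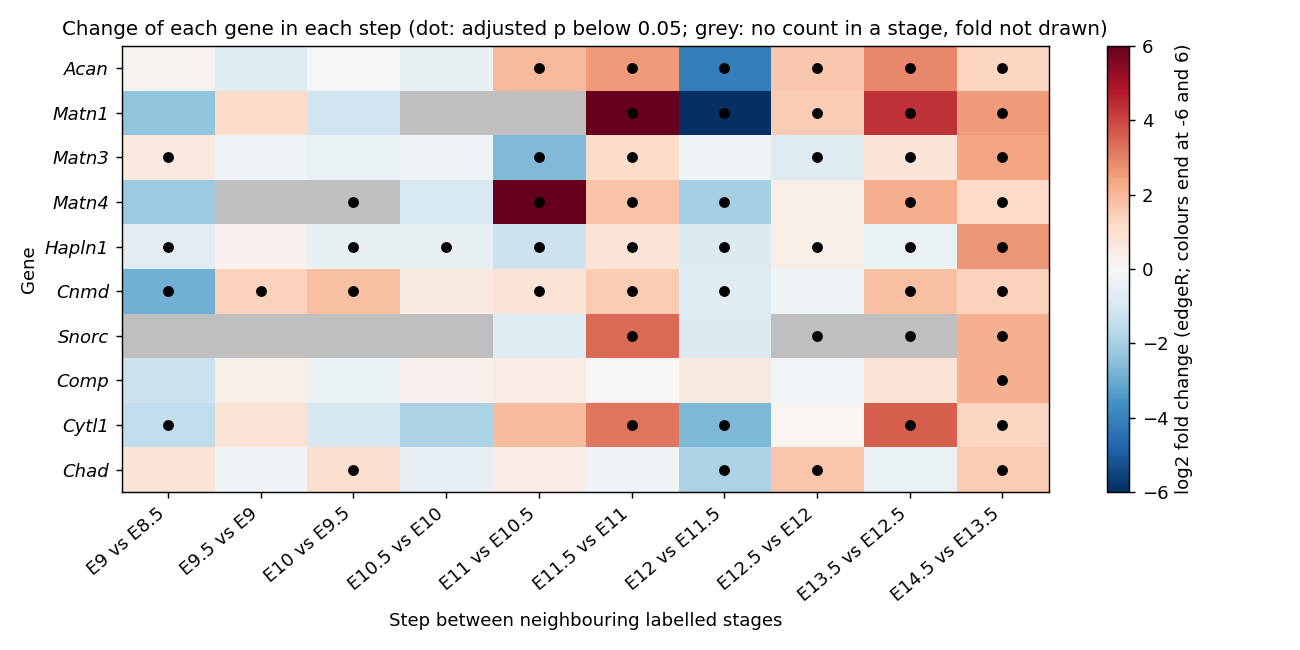
Log2 fold change (colour scale from -6 to 6) of each of the 10 genes (vertical axis) in each of the 10 steps between neighbouring labelled stages (horizontal axis), with a dot where the adjusted p was below 0.05 and grey where a stage had no count. The step to E11.5 shows 8 rises, the step to E12 shows 7 falls, and all 10 genes rise in the last step.

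The libraries labelled E11.5 stood above both neighbouring stages. From E11 to E11.5, 8 genes were higher and 0 lower, where 10.7% of tested genes were higher and 12.3% lower, and from E11.5 to E12, 7 were lower and 0 higher, where 35.6% were lower and 33.3% higher. Matn1 shows this most plainly, with 0.103, 0 and 0.105 CPM at E11, 15.4, 13.3 and 11.7 at E11.5, and 0.389, 0.158 and 0.111 at E12. Its steps were 7.43 ± 0.43 (adjusted p = 2.75e-13) and -5.97 ± 0.38 (adjusted p = 1.14e-12). Acan read 8.27, 8.52 and 7.53 CPM at E11.5 and 0.233, 0.867 and 0.333 at E12, a step of -4.11 ± 0.26 (adjusted p = 3.97e-13). Cytl1 fell by 2.69 ± 0.40 on the log2 scale, Matn4 by 2.01 ± 0.20, Chad by 1.9 ± 0.37, Hapln1 by 0.82 ± 0.12 and Cnmd by 0.78 ± 0.15. Chad had not risen before its fall, with 2.03 ± 0.37 CPM at E11 and 1.73 ± 0.41 at E11.5 (SD, n = 3). Comp was not higher at E11.5 than at E11 either. The call for Snorc at E11.5 (14 counts against 1) was lost without library b or c of E11 or library a or c of E11.5, with a highest adjusted p of 0.129.

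Set against E12.5, the E11.5 libraries were higher in 8 of the 10 genes and lower in 0, with no overlap, where 12.3% of tested genes were called higher, 15.2% lower and 20.7% were higher without overlap. The comparison was chosen after earlier results of these data had put the order of these labelled stages in doubt. Matn1 differed by 4.43 ± 0.30, Cytl1 by 2.56 ± 0.38, Acan by 2.51 ± 0.21 and Matn4 by 1.63 ± 0.19. Comp (-0.41 ± 0.66) and Chad (0.26 ± 0.30) did not pass. The median was 1.34 over the 10 genes and -0.05 over all genes. Rises were 44.7% of all calls in this comparison, and 64.5% with scaling by totals alone. Other lists were mixed in these libraries. Of the 10 osteoblast genes 5 were higher and 0 lower, with a summed level of 497 to 524 CPM at E11.5 and 279 to 337 at E12.5. Ibsp, a sialoprotein of bone and mineralizing cartilage, stood at 15.1 ± 0.63 CPM (SD, n = 3) at E11.5, and at most 0.26 in any E11, E12 or E12.5 library. Of 13 neuron genes 11 were higher and 0 lower, at 3370 to 3406 against 1981 to 2014 CPM. Of 10 neural progenitor genes 1 was higher and 5 were lower, at 1048 to 1091 against 1314 to 1405 CPM. Of 11 tested genes for other cartilage secreted proteins 3 were higher and 3 lower (median -0.06), and of 12 chondrogenic regulators 2 were higher and 1 lower (median -0.30). Among the cartilage collagens tested, Col9a3 (1.04 ± 0.17), Col11a2 (0.72 ± 0.14), Col9a2 (0.43 ± 0.12) and Col9a1 (0.35 ± 0.09) were higher at E11.5. Col27a1 and Col11a1 did not pass, and Col2a1, the main collagen of cartilage, was lower (-0.47 ± 0.14). The part of these tissues in the differences of the cartilage genes was not tested.

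From E12 to E12.5, 4 genes were higher (Acan, Matn1, Hapln1 and Chad) and 2 lower (Matn3 and Snorc), beside 32% and 31% of tested genes. Of these calls only Acan (1.60 ± 0.32) and Chad (1.64 ± 0.38) held when each library was left out in turn. Matn1 was lost without library b or c of E12 or library c of E12.5 (highest adjusted p = 0.168), and Matn3 without library b of E12 or library a or c of E12.5 (0.169). Hapln1 was lost without library a or b of either stage (0.146), and Snorc, with 0 counts against 6, without library a or b of E12 or any E12.5 library (0.0856). Red-cell RNA was highest at E12 and unequal between its libraries, with Hbb-y, an embryonic globin, at 19790, 15483 and 7076 CPM in libraries a, b and c. In library c, the one with the least of it, Hapln1 was highest of the 3 (25.4 CPM) and Cnmd lowest (6.72 CPM). The part of red-cell RNA in these levels was not tested.

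From E12.5 to E13.5, 7 genes were higher and 1 lower, beside 27.2% and 25.9% of tested genes. Matn1 (4.36 ± 0.31), Cytl1 (3.56 ± 0.36), Acan (2.89 ± 0.21), Matn4 (2.18 ± 0.19) and Cnmd (1.80 ± 0.15) rose, and Snorc went from 0 to 23 counts, at least 7.67-fold higher. The rise of Matn3 (0.77 ± 0.30) was lost without library a or c of E12.5 or library c of E13.5, with an adjusted p of up to 0.308. The fall of Hapln1 (-0.38 ± 0.12) was lost without library b of E12.5 or library c of E13.5, with an adjusted p of up to 0.126. Library c of E13.5 differed from a and b in several of these genes, with Matn4 at 55.5 against 35.2 and 33 CPM and Hapln1 at 14.8 against 21.8 and 22 CPM. Acan and Matn1 had thus risen at E13.5, where the Hapln1 mean of 19.6 ± 4.1 CPM lay within the spread of those at E11 and E12.

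Most cartilage collagens also rose between E12.5 and E14.5, where 25.3% of tested genes were higher and 28.6% lower. Of 8 listed, 7 were tested (Col10a1, the collagen of hypertrophic cartilage, was not), and 6 rose and 1 fell. Col11a2 (2.40 ± 0.14), Col9a3 (2.35 ± 0.17), Col9a1 (2.26 ± 0.09) and Col9a2 (1.70 ± 0.12) rose most. Col2a1, the main fibril collagen of cartilage, read 337, 329 and 375 CPM at E12.5 and 282, 252 and 262 at E14.5, a fall of 0.38 ± 0.14 (adjusted p = 0.0241). Sox9, the transcription factor that switches on chondrocyte genes, fell by 1.9 ± 0.10 (adjusted p = 6.76e-16) in the same comparison. No test set these differences against those of the 10 genes. Col2a1 and Sox9 were already present at E8.5, at 433 ± 13 and 39.5 ± 0.82 CPM (SD, n = 3). Which tissues gave their reads, at E8.5 or later, was not tested.

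Within libraries, Acan, Matn1, Matn4 and Cnmd gained on Col2a1 over the course. Per 100 of Col2a1, both per kilobase, Acan stood between 0.152 and 0.328 at E8.5, between 3.67 and 4.24 at E11.5, between 0.430 and 0.548 at E12.5 and at 12.2 ± 1.1 (SD, n = 3) at E14.5. Matn1 stood between 0.146 and 0.316 at E8.5 and between 125 and 136 at E14.5, and was at 0 in all E10.5 libraries. Cnmd went from between 1.78 and 2.14 to between 125 and 136, and Matn4 from at most 0.122 to between 60.5 and 63.9. Hapln1 went from between 41.8 and 45.8 at E8.5 to between 9.67 and 10.8 at E11 and between 64.6 and 77.2 at E14.5. Its own level differed by 0.01 ± 0.11 between E8.5 and E14.5, so its gain went with the lower Col2a1. Since scaling cancels within a library, these ratios do not depend on it.

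**Figure D4:**
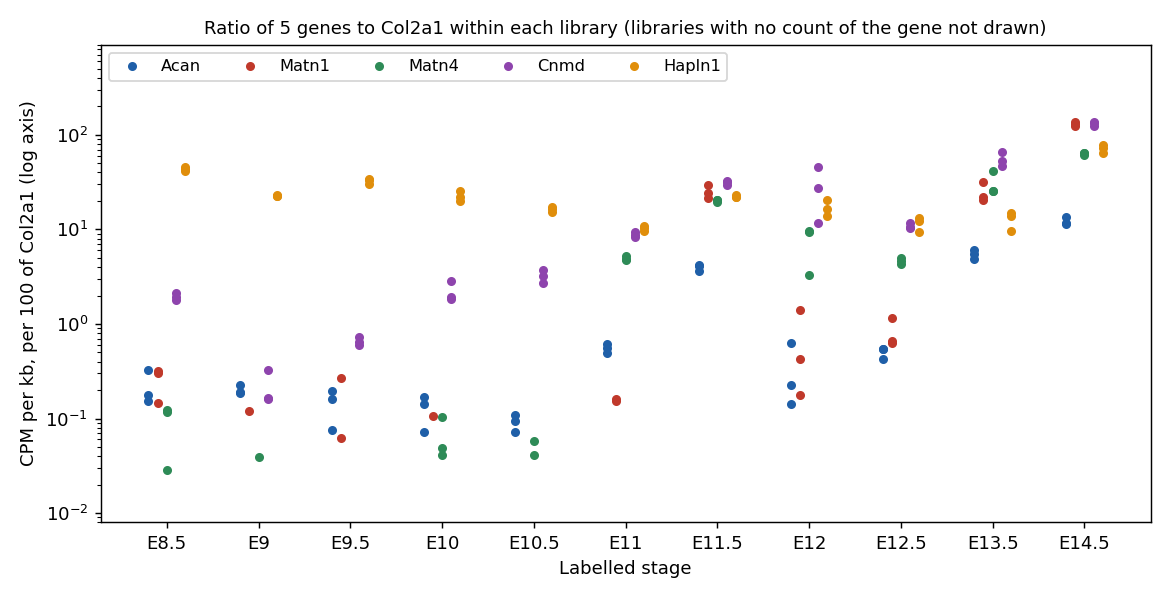
Per-kilobase level of Acan, Matn1, Matn4, Cnmd and Hapln1 per 100 of Col2a1 in each library (points, log axis), by labelled stage, with libraries without a count of the gene not drawn. Cnmd and Matn1 reach between 125 and 136 at E14.5, while Acan stays below both, at a mean of 12.2.

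Other genes of the cartilage pathway were described by the same comparison, E14.5 against E12.5. Of all tested genes 25.3% were higher in it and 28.6% lower. Of 12 regulators of cartilage formation, 5 were higher, 5 lower and 2 did not pass. Runx3, a transcription factor of chondrocyte maturation, rose by 3.62 ± 0.42 and Nkx3-2 by 2.18 ± 0.60 (9 counts at E12.5), and the growth factor receptor Fgfr3 fell by 2.05 ± 0.12. Of 17 genes for glycosaminoglycan synthesis and sulfation, 12 rose, 2 fell and 3 did not pass. Csgalnact1, which starts chondroitin chains, changed by 2.48 ± 0.23, and Papss2, which makes the sulfate donor, by 1.61 ± 0.19. Xylt1, which starts the linker to the core protein, fell by 1.46 ± 0.22, and Csgalnact2 rose by 1.31 ± 0.14. All 11 tested aggrecan-cleaving proteases and inhibitors of 12 listed were higher, among them Htra1 (3.23 ± 0.18), Timp1 (2.07 ± 0.20), Adamts5 (1.97 ± 0.11), an aggrecanase, and Mmp3, with 9 counts at E14.5 and 0 at E12.5. The list medians were -0.06 for the regulators, 0.47 for glycosaminoglycan synthesis and 1.18 for the proteases and inhibitors, beside -0.03 over all genes.

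**Figure D5:**
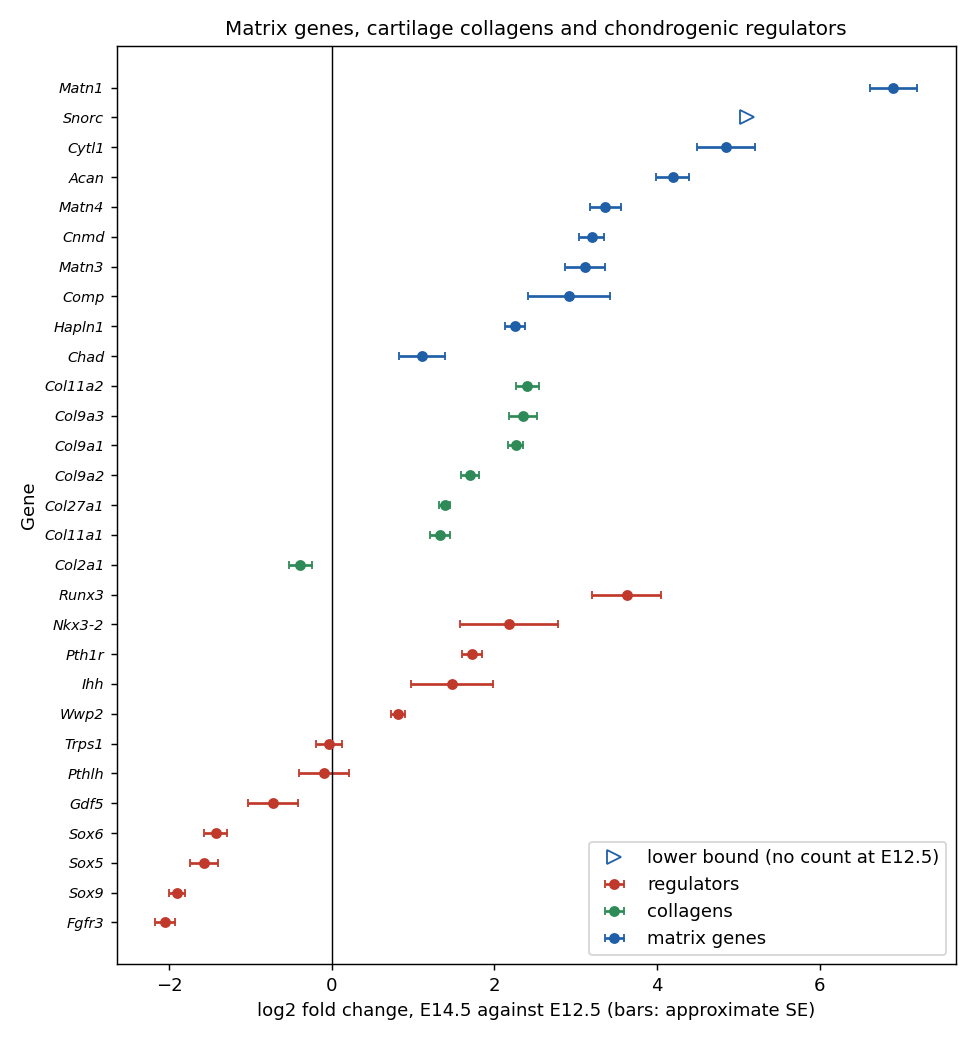
Log2 fold change of E14.5 against E12.5 (horizontal axis, bars approximate SE) for the 10 matrix genes, 7 cartilage collagens and 12 regulators, with the bound drawn for Snorc as an open triangle. All 10 matrix genes lie above 0, from Chad at 1.11 to Matn1 at 6.91, while Col2a1 and 5 regulators passed as lower.

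Close relatives of the 10 genes did not all rise. Of 12 tested of 13 listed, 7 were higher, 2 lower and 3 did not pass between E12.5 and E14.5. The shares over all tested genes were 25.3% higher and 28.6% lower. Ncan, the neural relative of aggrecan, fell by 3.73 ± 0.13, while Thbs2, a relative of Comp, rose by 3.15 ± 0.18, Matn2 by 2.68 ± 0.11 and Tnmd, the tendon relative of Cnmd, by 2.49 ± 0.17. Of 7 genes for making, binding or breaking down hyaluronan, 3 were higher (Cd44, a hyaluronan receptor, 2.68 ± 0.14, the synthase Has2, 1.27 ± 0.10, and Cemip, 1.12 ± 0.22), and Hyal2 was lower (-0.36 ± 0.12). Of 11 tested secreted cartilage proteins of 12 listed, 8 were higher and 1 lower, led by Susd5 (3.10 ± 0.24), Matn2 (2.68 ± 0.11), Fibin (2.34 ± 0.15) and Fmod (2.26 ± 0.23).

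Markers of several other tissues rose with the 10 genes between E12.5 and E14.5, where 25.3% of tested genes were higher and 28.6% lower. Of 10 osteoblast genes 8 were higher and 0 lower, and their summed level went from between 279 and 337 CPM to between 2438 and 2626. Of 7 tendon genes 6 were higher and 0 lower, from between 43.5 and 46.4 CPM to between 248.5 and 270.7, led by Aspn (4.43 ± 0.23), Kera (3.23 ± 0.34) and Tnmd. All 7 skeletal muscle genes were higher, from between 15.8 and 19.9 CPM to between 271.1 and 306.3. Neural genes went the other way, with 10 of 10 neural progenitor genes lower (between 1314 and 1405 CPM to between 246.6 and 260.8, with Msx3 at 0 at E14.5) and 8 of 13 neuron genes lower and 2 higher. Of 7 markers of hypertrophic cartilage, 5 were tested and these 5 were higher (Ibsp by 11.09 ± 0.30, Panx3 by 4.84 ± 0.19, Pth1r by 1.73 ± 0.12, Ihh by 1.48 ± 0.51 and Mef2c by 1.47 ± 0.15), and the summed level went from between 58 and 65.6 CPM to between 690.2 and 703 CPM. Ibsp is also on the osteoblast list. It alone made up most of the hypertrophic sum at E14.5, with 464 ± 14 CPM (SD, n = 3), against 0.204 ± 0.078 CPM at E12.5. The other 2 members were too low to be tested, with Col10a1 at 0.321, 0.214 and 0.229 CPM and Mmp13 at 0.206 ± 0.065 CPM at E14.5. The part of these tissues in the changes of the cartilage genes was not tested.

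Among the 10 genes, 36 of 45 pairs had a correlation above 0 over the 11 stage means of log2 CPM, and those at or below 0 all involved Hapln1 or Matn3. The next values describe likeness over 14942 genes that reached 1 CPM in at least 1 stage mean, again without a test. The genes most like Matn4 were Col9a3 (0.99), Gjb6 (0.99) and Slc4a10 (0.98). Those most like Acan were Camk2d (0.98), Trpv1 (0.97) and Nrp1 (0.97), those most like Matn1 were A2ml1 (0.98), Prss53 (0.97) and Cyp2g1 (0.97), and those most like Cytl1 were Tmem150a (0.98), Trpv4 (0.97) and Arhgef3 (0.96). For Cnmd they were Cldn1 (0.98), Egfl6 (0.97) and Sparcl1 (0.96), for Hapln1 Cd2ap (0.95), Impact (0.94) and Nt5dc1 (0.93), and for Matn3 Ptgr2 (0.95), Stard8 (0.94) and Zfp248 (0.93). Matn1 also correlated at 0.97 with Ibsp and Matn4 at 0.96 with Tnmd, genes of bone and tendon, over the same points. For Matn1 and Ibsp the Spearman correlation was 0.63, and the Pearson correlation without E11.5, E12 and E13.5 was 0.97.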

How the data were processed

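RNA sequencing of 33 libraries, 3 at each of 11 stages, was analysed from the deposited table of raw counts per gene, whole numbers that the authors did not normalize. The submitters' processing notes name cutadapt 1.9.1, HISAT2 2.0.1, HTSeq 0.6.1 and the build GRCm38, per the labels. The sources used here give neither the annotation release nor the strand setting. Symbols came from GENCODE M21 and matched 55141 of 55401 genes. Column names gave the stage of each library.

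Tests used edgeR 4.0.16 (R 4.3.3, limma 3.58.1) on the counts, with TMM factors (0.797 to 1.18), the filter given the stages, and a quasi-likelihood fit of a mean per stage with 22 residual degrees of freedom. Standard errors were derived from F statistics. Where a stage had no count, bounds use a floor of 3 counts over the group and cover counting error only. A prior count of 2 entered log2 CPM. The script was tested on simulated data. No pair of libraries within a stage agreed within sampling noise, with a chi-square per gene of 1.85 or more. At 14516518 counts or more per library, 1 count is below 0.1 CPM.

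The 10 genes, the lists and the comparison of E11.5 with E12.5 were chosen with earlier results of these data known. The text names all 10 genes, and for other lists up to 4 passing members with the largest change, with Col2a1 and Sox9 always, and for likeness the top 3 genes. Ibsp, Tnmd, Hbb-y, Acsf2, Rbpjl, Col10a1 and Mmp13 were named after their values were seen. Alternatives were DESeq2 1.42.0 and its size factors, totals alone, no filter, a stricter filter (1 CPM in 3 libraries), a block on the column letter, only the libraries compared, fits without E11.5, E12 and E13.5, and each library left out in turn. Levels of the 10 genes were also set out without the correction for exon length. Promoter windows are RefSeq's for GRCm38.p6. Figures used matplotlib 3.10.9.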

Additional observations from a re-analysis of the deposited data

How the results depend on the processing

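No value for a gene reversed its direction under any alternative run, and for the 5 main comparisons of distant stages the counts of genes higher or lower kept within 1.5 times of the value given, except in the comparison of E10.5 with E8.5. There, genes lower numbered 2 with only the 6 libraries compared (4 in the fit of all libraries), and genes higher ranged from 1 to 2 when each library was left out in turn. The steps between neighbouring stages depended more on the fit. With scaling by totals alone, 0 genes were lower at E10 than E9.5 and 1 at E12.5 than E12, and without a filter 1 was lower at E12.5 than E12. With only the 6 libraries compared, 2 were lower at E10 than E9.5, 2 higher and 0 lower at E12.5 than E12, and 0 lower at E13.5 than E12.5. With E11.5, E12 and E13.5 left out, 2 were higher at E9.5 than E9, 2 lower at E10 than E9.5, and 1 higher and 2 lower at E10.5 than E10. The cause was not tested, except that fewer genes pass the filter with fewer libraries.

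When each library was left out in turn, genes higher ranged from 0 to 1 at E9 against E8.5, 0 to 2 at E9.5 against E9, 1 to 3 at E10 against E9.5, and 0 to 1 at E10.5 against E10. Genes lower ranged from 1 to 2 at E10 against E9.5, 0 to 1 at E10.5 against E10, 0 to 3 at E12.5 against E12, and 0 to 1 at E13.5 against E12.5. Cytl1 at E11 against E10.5 (1.88, adjusted p = 0.0536) passed under DESeq2 (1.99, adjusted p = 0.0185) and under several other fits.

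The column letters did not pair libraries across stages: deviations from stage means correlated at a median of -0.0031 between libraries of the same letter, and 6 of 33 libraries correlated best with their own letter. A replicate block on the letter changed the call of 1 of 181 values, Cytl1 at E11 against E10.5 (1.88, adjusted p = 0.0463). Depth limits Snorc (164 counts over all libraries) and Comp (235 counts) in particular, and likeness ranks moved with a Spearman correlation or with those 3 stages left out.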
